A study of Mus musculus with 35 samples.

Results

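The comparison described here sets mouse fibroblasts that kept NELFB from a transgene against the same fibroblasts without it, after Cre had been delivered to both. It rests on 4 of the 35 RNA-seq libraries of the series, which were chosen by their labels: 2 WT-Cre libraries and 2 EV-Cre libraries. All populations were immortalized mouse embryonic fibroblasts of the genotype Nelfb flox/-, which carry 1 floxed and 1 null allele, so the null allele was shared by every group, controls included. The compared populations had been transduced with pLenti and selected with G418. The vector was either empty (EV) or carried wild-type mouse NELFB with a C-terminal flag tag under a CMV promoter (WT). RNA was collected 7 days after Ad-Cre-GFP, an adenovirus carrying Cre and GFP (EV-Cre, WT-Cre), or after Ad-GFP, which lacks Cre and leaves the floxed allele in place (EV-GFP, WT-GFP). Populations with the NELFB mutants MT194 and MT486, and populations labelled DMT, each with both viruses, entered the statistical fit but neither comparison. The EV-GFP and WT-GFP populations, with 2 libraries each, served as a second comparison of WT with EV that uses none of the 4 Ad-Cre libraries. These were selected populations and not clones, so uninfected cells and cells with differing transgene levels could be present in each, and the flag-tagged NELFB was not under its own promoter.

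NELFB is a subunit of the negative elongation factor, NELF, a complex of NELFA, NELFB, NELFC/D (encoded by Nelfcd) and NELFE. NELF binds RNA polymerase II shortly after initiation, together with the factor DSIF, and holds it close to the promoter until the kinase P-TEFb releases it. Loss of one subunit is known to destabilise the complex, and NELFB is needed for the proliferation of many cultured cells. The comparison asks which mRNAs differ with and without the NELFB transgene once Cre has been delivered to the floxed allele.

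The 4 libraries held 21011317 (EV-Cre, experiment 1), 22894317 (EV-Cre, experiment 2), 22704317 (WT-Cre, experiment 1) and 21151468 (WT-Cre, experiment 2) reads on genes. Replicates 1 and 2 came from 2 independent experiments, and libraries with the same number deviated from their group means in the same direction. Levels are given below as TMM-normalised CPM, which are reads scaled to a common library size. These are not divided by gene length, so they compare libraries for 1 gene and not genes with each other. Fold changes are on the log2 scale from edgeR's quasi-likelihood fit to all 20 populations, those labelled MT194, MT486 and DMT included. A gene was called when its Benjamini-Hochberg adjusted p in that fit was under 0.05 and its absolute log2 fold change over 0.5. The share of reads that fell on no annotated gene was 15.5% and 18.8% in EV-Cre (experiments 1 and 2) against 11.7% and 15.2% in WT-Cre. With Ad-GFP it was 13.9% and 17.7% in EV-GFP against 13.7% and 16.7% in WT-GFP. It was therefore lower in WT-Cre than in EV-Cre in both experiments, and its part in the results below was not tested. On the second principal component of the 20 populations, which separated the experiments, the WT-Cre library of experiment 2 lay at 1.16 while the other libraries of experiment 2 lay between -34.2 and -14.5, so that library stood apart from its batch.

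Nelfb itself (chr2:25199712-25211489, minus strand, mm10) checked the labels. It was at 7.97 and 5.46 CPM in the EV-Cre libraries (experiments 1 and 2) and at 75.9 and 60.5 CPM in the WT-Cre libraries. With Ad-GFP it was at 46.1 and 39.6 CPM in EV-GFP and at 97.5 and 82.8 CPM in WT-GFP. The EV-Cre libraries were the lowest of the 8 and the WT-GFP libraries the highest, with no overlap between any of the 4 groups. WT-Cre exceeded EV-Cre by 3.34 on the log2 scale (SE 0.22, edgeR adjusted p = 1.11e-05), by 3.24 in experiment 1 and 3.45 in experiment 2. Reads of the transgene and of the endogenous gene are counted alike, and the EV-Cre libraries still held 177 and 116 Nelfb reads. The exons that Cre removes are not given in the sources used here, so these reads are not a measure of full-length transcript. The other subunits differed less. Nelfa, which encodes the subunit that contacts the polymerase, was at 37.7 and 30.4 CPM in EV-Cre against 43.9 and 39.9 in WT-Cre (log2 fold change 0.30, SE 0.20, edgeR adjusted p = 0.411). Nelfcd was at 35.05 and 32.8 against 34.9 and 35.7 CPM (0.06, SE 0.15, edgeR adjusted p = 0.86), and Nelfe, which encodes the RNA-binding subunit, was at 28.9 and 23.9 against 37.0 and 33.5 CPM (0.42, SE 0.24, edgeR adjusted p = 0.313). None of these 3 passed the test, and the plot of the 4 subunits shows their libraries within a narrow band.

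**Figure D1:**
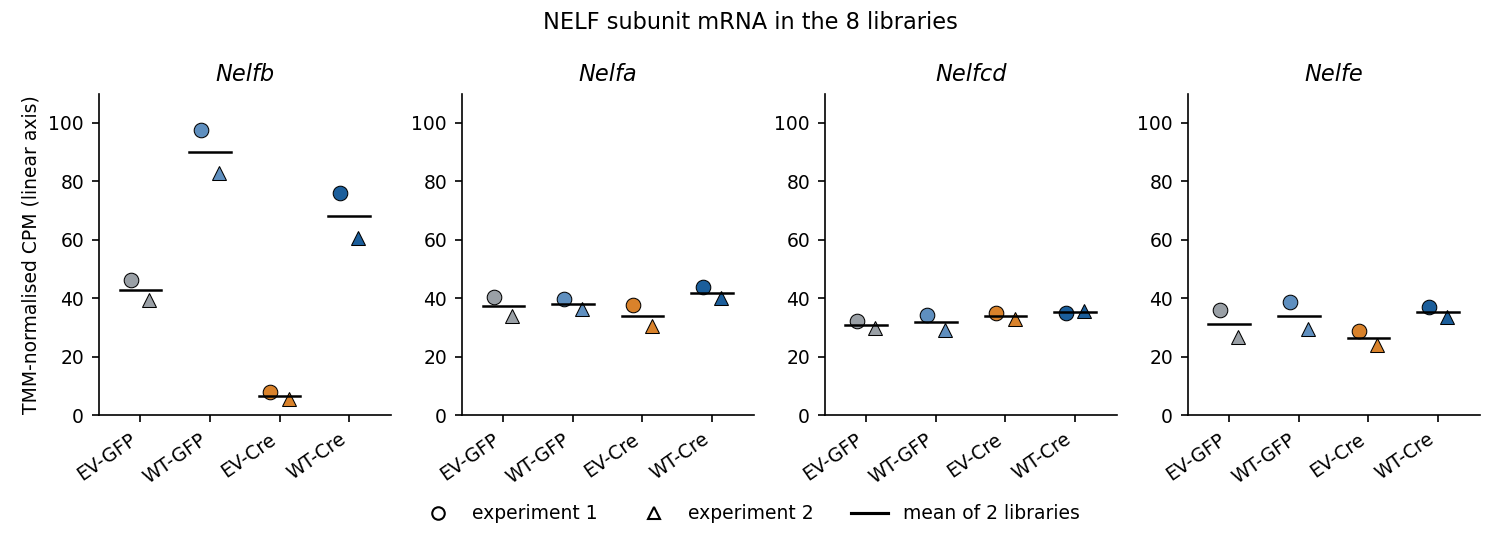
TMM-normalised CPM (linear axis from 0) of Nelfb, Nelfa, Nelfcd and Nelfe in EV-GFP, WT-GFP, EV-Cre and WT-Cre. Circles are experiment 1, triangles experiment 2 and bars the mean of 2 libraries. Nelfb lies at 7.97 and 5.46 in EV-Cre and at 75.9 and 60.5 in WT-Cre, while the other subunits stay between 23.9 and 43.9 in all 8 libraries.

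Of 13805 genes tested, 1018 (7.37%) were called between WT-Cre and EV-Cre, 537 (3.89%) higher and 481 (3.48%) lower in WT-Cre. The median log2 fold change was 1.06 among the genes called higher and -1.08 among those called lower, against -0.02 over all genes tested. Of the genes called, 559 passed an absolute log2 fold change of 1 and 121 passed 2. The 1018 genes moved in the same direction in both experiments, and in none did the EV-Cre and WT-Cre libraries overlap. The calls were made on these 4 libraries, so this describes the genes called and is no separate evidence. Over all genes tested, 79.2% had the same sign of difference in experiments 1 and 2, and in 54% the EV-Cre and WT-Cre libraries did not overlap. When the experiment entered the fit as a replicate block, 3175 of the 13805 genes were called, 1534 higher and 1641 lower. These included all 1018. Counts for lists under that block, given below, are to be set beside these totals and not beside 7.37%, 3.89% or 3.48%. When 1 library was left out, so that 1 group had a single library assumed to vary like the others, 224 genes were called without WT-Cre replicate 1, 173 without WT-Cre replicate 2, 669 without EV-Cre replicate 1 and 224 without EV-Cre replicate 2. Of the 95 called genes in the named set, 34 were called without any 1 of the 4 libraries and 17 lost the call whichever library was left out, and none changed direction.

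**Figure D2:**
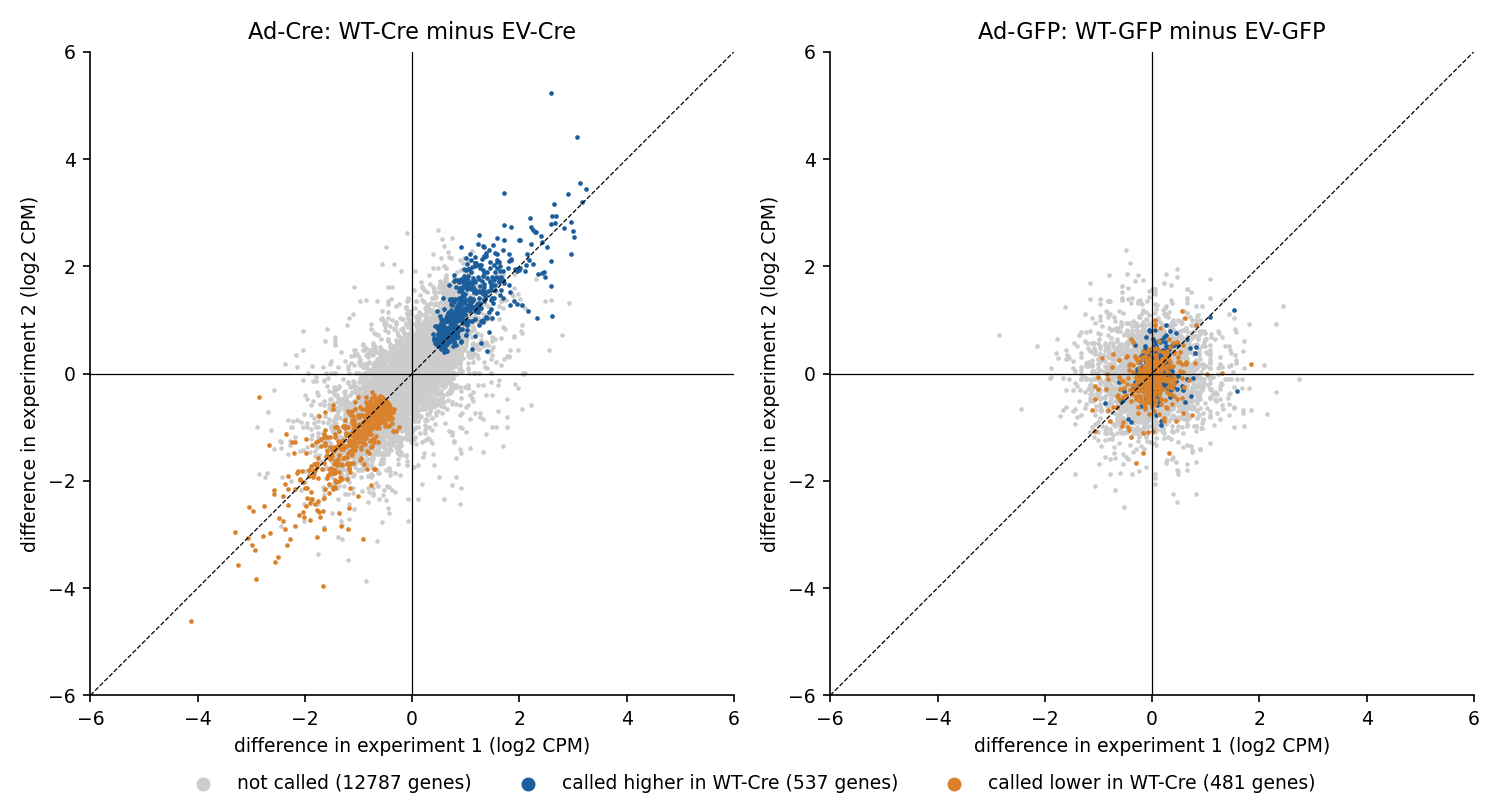
Difference between WT and EV in experiment 1 (x axis) and experiment 2 (y axis), in log2 CPM with a prior count of 2, for each of 13805 genes with Ad-Cre (left) and Ad-GFP (right). Blue and orange mark the 537 genes called higher and the 481 called lower with Ad-Cre, and the dashed line is equality. With Ad-Cre the called genes lie along the line in both directions, while with Ad-GFP the same genes lie around 0.

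Genes of cholesterol synthesis had the largest median difference of the 35 lists. Cells make cholesterol from acetyl-CoA through mevalonate and squalene, and the genes of the pathway are driven by SREBP-2, which is released to the nucleus when membrane sterol is low. Of 22 genes of sterol biosynthesis tested, 19 were called higher in WT-Cre (86.4%, beside 3.89% of all genes tested) and none lower. The median log2 fold change was 2.18 over the 22 and 0.02 between WT-GFP and EV-GFP. Fdps, farnesyl diphosphate synthase (chromosome 3), was at 8.33 and 7.49 CPM in EV-Cre and at 75.5 and 69.9 CPM in WT-Cre (log2 fold change 3.20, SE 0.42, edgeR adjusted p = 0.00101). The libraries of WT-Cre lay far above those of EV-Cre and below those of EV-GFP, which held Fdps at 107 and 97.3 CPM. Mvd, mevalonate diphosphate decarboxylase, was at 8.61 and 7.53 against 68.0 and 54.2 CPM (2.92, SE 0.37, edgeR adjusted p = 0.000837). Cyp51, the lanosterol demethylase, was at 31.1 and 42.0 against 222 and 276 CPM (2.77, SE 0.31, edgeR adjusted p = 0.00043). Both were called without any 1 library, as was Fdps. Idi1, isopentenyl diphosphate isomerase, had a larger fold change from few reads. It was at 0.766 and 0.0471 CPM in EV-Cre against 5.09 and 5.11 in WT-Cre (3.61, SE 0.88, edgeR adjusted p = 0.0261), and when 1 library was left out its log2 fold change ranged from 2.72 to 6.60 and its adjusted p from 0.0325 to 0.205. The members without a call, named after their values were seen, were Ebp (1.01), Lbr (0.59) and Ggps1 (-0.26), where the values are log2 fold changes. Ggps1 makes the side-branch product geranylgeranyl diphosphate. Over the fits without 1 library, 16 to 17 of the 22 were called higher.

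Among 19 genes of sterol sensing, uptake and efflux, 6 were called higher in WT-Cre and none lower, with a median of 0.02 and 4 to 5 called when 1 library was left out. The 6 called genes made up 31.6% of the list, beside 3.89% of all genes tested that were called higher. Insig1, which retains the SREBP complex in the endoplasmic reticulum, was at 19.1 and 16.2 CPM in EV-Cre against 122 and 124 CPM in WT-Cre (log2 fold change 2.81, SE 0.26, edgeR adjusted p = 0.000134). Its EV-Cre and WT-Cre libraries were far apart in both experiments, and it was called without any 1 library. Stard4, a cytosolic sterol carrier, was at 20.3 and 12.2 against 97.5 and 78.7 CPM (2.44, SE 0.47, edgeR adjusted p = 0.00839, up to 0.111 without 1 library). Abca1, the efflux transporter driven by liver X receptors, had a log2 fold change of -0.01 and Srebf1 one of 0.06, and neither passed the test.

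The promoters of the sterol genes were read from RefSeq (GRCm38.p6, 250 bases before to 50 after each gene's start), which held 17 of the 22 genes of sterol biosynthesis. A sterol regulatory element written as TCACNCCAC, searched on both strands, was found in 1 of the 17 (5.88%), against 1.48% of the 10349 tested genes with a promoter in that source. Its share was higher in fatty acid oxidation (2 of 24, 8.33%) and in the matrix metalloproteinases and TIMPs (1 of 11, 9.09%). A CCAAT box, written as CCAAT and also searched on both strands, was found in 16 of the 17 (94.1%) against 42.9% of tested genes. The sterol genes without a call, Ebp, Lbr and Ggps1, had it too. Its share was also high in mitosis (81.8%), in fatty acid synthesis and desaturation and in the smooth-muscle contractile genes (73.3% each). The called smooth-muscle genes were lower in WT-Cre. Other lists lay below the tested genes, such as the cytosolic ribosome (31.6%). CCAAT is bound by the factor NF-Y, which is known to act beside SREBP. A match is a description of the letters and not a binding site. The windows of the gene with the sterol element and of the named genes with a CCAAT match follow, the latter at the match nearest to the start. Capitals mark the motif, letters run 5′ to 3′ along the gene's strand, and ATTGG is CCAAT on the other strand. They lie at chr13:119690204-119690232 (Hmgcs1, plus strand), chr5:4104710-4104738 (Cyp51, minus strand), chr8:122443433-122443461 (Mvd, minus strand) and chr13:8885580-8885608 (Idi1, plus strand).
Hmgcs1: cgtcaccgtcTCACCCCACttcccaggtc
Cyp51: cgctgtccgccaCCAATctggtcctgaga
Mvd: ccggccagcgggCCAATcatatggcagcg
Idi1: gtccaaggtgccATTGGctggcgaccgac

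Fatty acid synthesis and desaturation showed smaller differences than sterol synthesis. Of 19 genes tested, 9 were called higher in WT-Cre (47.4%, beside 3.89% of all genes tested) and none lower, with a median log2 fold change of 0.71. With the replicate block 12 of the 19 were called higher and 1 lower, and in fatty acid oxidation 7 of 28 higher and 1 lower. Over all 13805 genes tested that block called 1534 higher and 1641 lower. Scd1, a stearoyl-CoA desaturase that makes monounsaturated fatty acids, was at 53.4 and 62.6 CPM in EV-Cre against 237 and 295 CPM in WT-Cre (2.196, SE 0.23, edgeR adjusted p = 0.000323). Its relative Scd2 was at 441 and 658 against 2095 and 2702 CPM (2.13, SE 0.34, edgeR adjusted p = 0.00308). Elovl6, which elongates palmitate, was at 56.3 and 62.7 against 193 and 247 CPM (1.89, SE 0.28, edgeR adjusted p = 0.00228). All 3 were called without any 1 library. Fasn, fatty acid synthase, was at 282 and 301 against 577 and 566 CPM (0.97, SE 0.16, edgeR adjusted p = 0.0042). Its libraries did not overlap, and its change was less than that of the desaturases on the same scale, although that difference between genes was not tested. Fads1, the delta-5 desaturase, was at 117 and 154 against 330 and 411 CPM (1.45, SE 0.31, edgeR adjusted p = 0.0151) but lost its call whichever library was left out. Over the fits without 1 library, 5 to 7 of the 19 were called. In fatty acid oxidation 3 of 28 genes were called higher and 1 lower (14.3% called, beside 7.37% of all genes tested), and of the 3 higher, 0 to 1 kept a call when 1 library was left out and none with the compared groups alone. Cpt1a, which carries fatty acids into mitochondria, was the one lower in WT-Cre, at 227 and 264 CPM in EV-Cre against 139 and 150 CPM in WT-Cre (-0.76, SE 0.18, edgeR adjusted p = 0.0239, up to 0.185 without 1 library).

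Genes of mitosis were higher in WT-Cre where they were called. Of 40 genes tested, 23 were called higher (57.5%, beside 3.89% of all genes tested) and none lower. The median log2 fold change was 1.33, and 39 of 40 lay above 0, beside 48.5% of all genes tested. Kif2c, a microtubule-depolymerising kinesin of the centromere, was at 13.4 and 7.72 CPM in EV-Cre against 38.3 and 41.2 CPM in WT-Cre (1.91, SE 0.36, edgeR adjusted p = 0.0079). Ccnb1, cyclin B1, was at 11.5 and 6.03 against 28.9 and 31.9 CPM (1.79, SE 0.40, edgeR adjusted p = 0.0173). Cdca3, which takes part in entry into mitosis, was at 27.7 and 15.3 against 74.9 and 75.4 CPM (1.81, SE 0.38, edgeR adjusted p = 0.0133). In each of them the EV-Cre library of experiment 2 was the lowest of the 4, while the WT-Cre libraries were close together, so the difference was larger in experiment 2 (2.40, 2.39 and 2.30) than in experiment 1 (1.51, 1.33 and 1.43). The count of calls depended on which library was left out. Without EV-Cre replicate 1, 26 of the 40 were called, against 1 without WT-Cre replicate 1, 0 without WT-Cre replicate 2 and 0 without EV-Cre replicate 2. With the experiment as a replicate block, 39 were called. In bulk RNA, fewer dividing cells and less of these mRNAs per cell cannot be told apart.

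The hexamer TTTGAA, known as the cell cycle homology region in promoters of mitotic genes, was found on either strand in 24 of the 33 mitotic genes with a RefSeq promoter (72.7%), against 14.1% of tested genes. CCAAT was found in 27 of the 33 (81.8%). The named mitotic genes with a TTTGAA match are shown, with the hexamer in capitals (TTCAAA on the other strand). They lie at chr4:117178858-117178887 (Kif2c, minus strand), chr6:124830194-124830223 (Cdca3, plus strand) and chr9:70421533-70421562 (Ccnb2, minus strand), in the GRCm38.p6 build.
Kif2c: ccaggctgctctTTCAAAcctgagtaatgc
Cdca3: cgtggagggaagTTTGAAactccgggcttt
Ccnb2: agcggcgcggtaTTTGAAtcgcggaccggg

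Genes of DNA replication had fewer calls. Of 45 tested, 6 were called higher (13.3%, beside 3.89% of all genes tested) and none lower, with a median of 0.62, and the list held 0 to 5 calls when 1 library was left out and 28 with the replicate block. Tk1, thymidine kinase, was at 18.2 and 11.7 CPM in EV-Cre against 35.5 and 37.0 CPM in WT-Cre (log2 fold change 1.28, SE 0.32, edgeR adjusted p = 0.0288, up to 0.257 without 1 library). Among 22 G1 cyclins, kinases and CDK inhibitors, 4 were called higher and 1 lower, against 1 to 2 and 0 to 1 when 1 library was left out. Calls made up 22.7% of this list, beside 7.37% of all genes tested. With the replicate block 7 were called higher and 1 lower, beside 1534 and 1641 of all 13805 genes tested. The inhibitors did not move one way. Cdkn1a, which encodes p21, was at 78.8 and 50.7 CPM in EV-Cre against 24.3 and 21.7 CPM in WT-Cre (-1.49, SE 0.30, edgeR adjusted p = 0.0108, up to 0.112 without 1 library). Cdkn2a, the locus of p16 and p19ARF, was at 19.7 and 16.3 against 60.7 and 54.3 CPM (1.67, SE 0.26, edgeR adjusted p = 0.00308) and was called without any 1 library. Cdkn2b (p15) and Cdkn1c (p57) were also called higher, at 1.32 (edgeR adjusted p = 0.0224) and 1.56 (edgeR adjusted p = 0.0067), of which Cdkn2b lost its call whichever library was left out and Cdkn1c kept it in 2 of 4 cases. Among 31 targets of Trp53, 3 were called higher and 6 lower, against 1 to 2 and 1 to 3 when 1 library was left out. Calls made up 29% of these targets, beside 7.37% of all genes tested. With the replicate block 5 were called higher and 13 lower, beside the same 1534 and 1641 of all genes tested. Plk2, a polo-like kinase induced by stress, was at 273 and 237 against 71.4 and 68.2 CPM (-1.87, SE 0.14, edgeR adjusted p = 1.45e-05). Sesn1, a sestrin, went the other way, at 26.9 and 21.2 against 61.1 and 62.3 CPM (1.36, SE 0.20, edgeR adjusted p = 0.00208). Both were called without any 1 library.

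**Figure D3:**
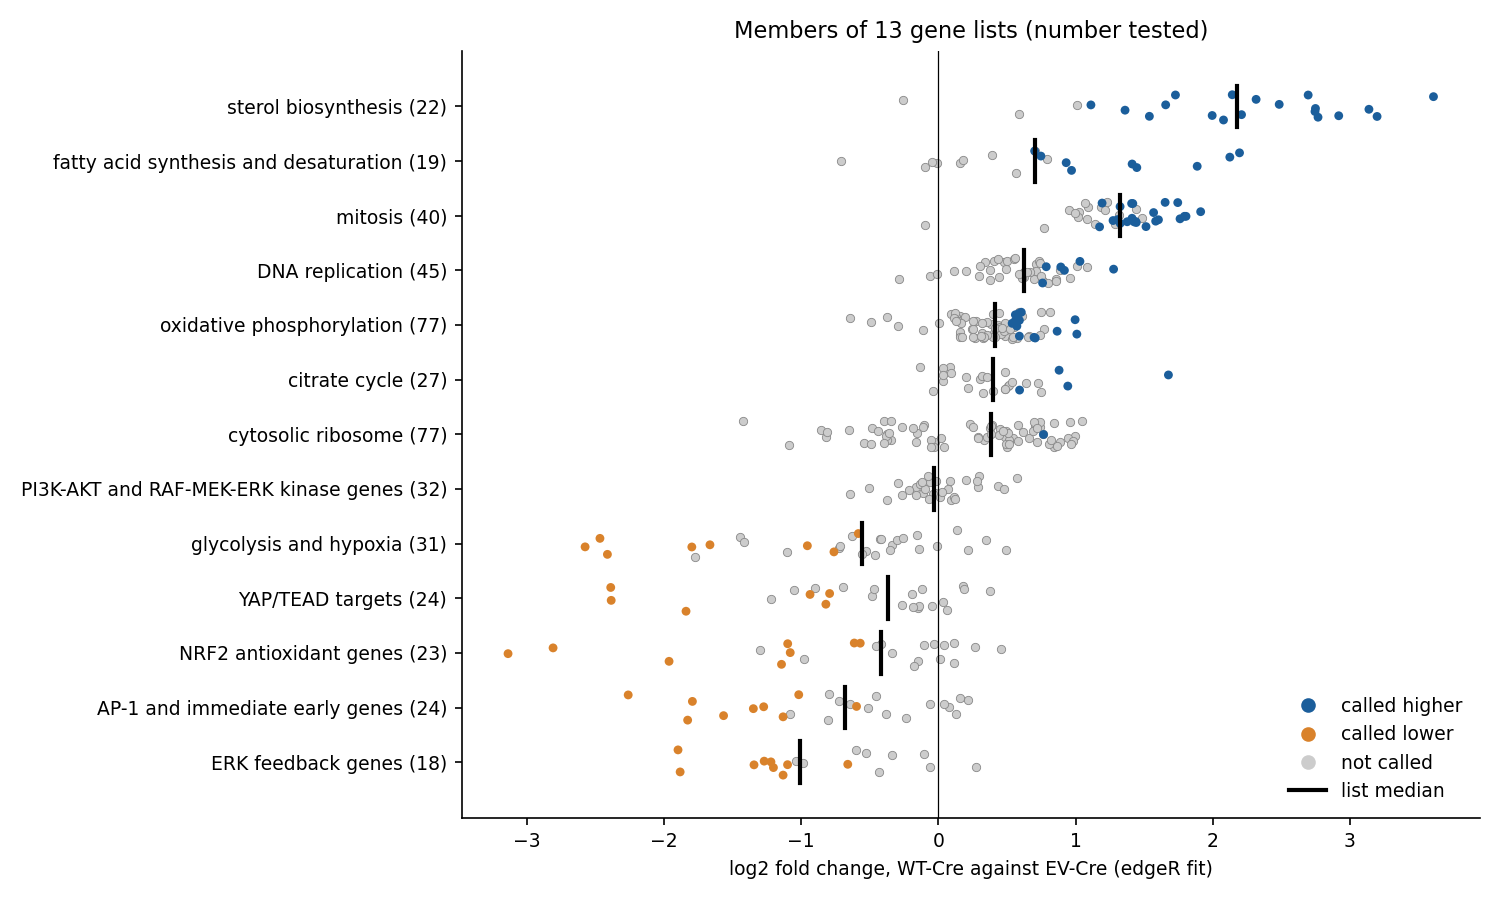
Log2 fold change of WT-Cre against EV-Cre (x axis, edgeR fit) for each tested member of 13 gene lists, with the number tested in parentheses. Blue points were called higher in WT-Cre, orange points called lower and grey points not called, and black bars mark the list medians, which run from 2.18 in sterol biosynthesis to -1.01 in the ERK feedback genes.

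Nuclear genes of the respiratory chain were mostly above 0. Of 77 oxidative phosphorylation genes tested, 13 were called higher (16.9%, beside 3.89% of all genes tested) and none lower. The median was 0.41, and 72 of the 77 lay above 0, beside 48.5% of all genes tested. Ndufb11, a subunit of complex I, was at 36.9 and 33.6 CPM in EV-Cre against 70.4 and 71.6 CPM in WT-Cre (log2 fold change 1.01, SE 0.13, edgeR adjusted p = 0.000925), and was called without any 1 library. The list as a whole held 1 to 6 calls when 1 library was left out and 28 with the replicate block. Of 27 citrate cycle genes, 4 were called higher (14.8%) and none lower (median 0.40), against 0 to 3 when 1 library was left out and 0 with the compared groups alone. Idh1, cytosolic isocitrate dehydrogenase, was at 62.3 and 30.4 against 158 and 138 CPM (1.68, SE 0.37, edgeR adjusted p = 0.0164, up to 0.168 without 1 library). Of 77 cytosolic ribosomal protein genes, 1 was called, a share of 1.3% that is below the 7.37% called over all genes tested. The gene was Rpl19, at 6.58 and 10.3 against 14.4 and 14.3 CPM (0.76, SE 0.21, edgeR adjusted p = 0.0457). It lost the call without the filter on low counts (0.0629), with the compared groups alone (0.145) and in 3 of 4 fits without 1 library, and over those 4 fits its log2 fold change ranged from 0.479 to 1.12. Ribosomal protein genes have near-identical processed copies in the genome, and reads that could not be placed uniquely were not counted, so their levels are uncertain. With the replicate block 31 of the 77 were called higher and 7 lower, beside 1534 higher and 1641 lower of all 13805 genes tested. Of the 27 citrate cycle genes, that block called 10 higher and none lower.

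Genes of glycolysis and hypoxia were lower in WT-Cre where they were called. Of 31 tested, 8 were called lower (25.8%, beside 3.48% of all genes tested) and none higher (median -0.56). With the replicate block 16 were called lower and none higher, beside 1641 lower and 1534 higher of all 13805 genes tested. Ero1l, an endoplasmic reticulum oxidase induced by low oxygen, was at 214 and 383 CPM in EV-Cre against 47.1 and 53.1 CPM in WT-Cre (log2 fold change -2.58, SE 0.48, edgeR adjusted p = 0.00762). Ankrd37, a target of hypoxia-inducible factor, was at 6.13 and 8.99 against 1.16 and 1.57 CPM (-2.47, SE 0.32, edgeR adjusted p = 0.00093). Slc2a1, the glucose transporter GLUT1, was at 272 and 436 against 90.3 and 113 CPM (-1.80, SE 0.46, edgeR adjusted p = 0.0317). For Ero1l and Slc2a1 the EV-Cre library of experiment 2 was the highest of the 4, and their adjusted p rose to 0.0823 and 0.229 when 1 library was left out, whereas Ankrd37 was called in each case. The list held 1 to 5 calls when 1 library was left out.

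Targets of YAP/TEAD and TGF-beta were lower in WT-Cre where they were called, with Tgfbi the exception. Of 24 YAP/TEAD targets, 6 were called lower and none higher (median -0.37), with 0 to 6 called when 1 library was left out. The 6 called targets made up 25% of the list, beside 3.48% of all genes tested that were called lower. Ctgf and Cyr61, secreted matrix-associated proteins, led the called targets. Ctgf was at 452 and 834 CPM in EV-Cre against 121 and 125 CPM in WT-Cre (log2 fold change -2.39, SE 0.45, edgeR adjusted p = 0.00766), and Cyr61 at 837 and 1789 against 204 and 298 CPM (-2.39, SE 0.60, edgeR adjusted p = 0.0295). Both EV-Cre libraries lay above both WT-Cre libraries, but each gene kept its call in only 1 of the 4 fits without 1 library, with adjusted p up to 0.0794 and 0.236. Of 24 TGF-beta ligands, receptors and responses, 4 were called lower and 1 higher (20.8% called, beside 7.37% of all genes tested). Smad7, an inhibitor of the pathway, was at 87.3 and 92.9 against 32.1 and 29.8 CPM (-1.54, SE 0.18, edgeR adjusted p = 0.000618), and Inhba, an activin subunit, at 49.6 and 68.1 against 18.1 and 17.2 CPM (-1.74, SE 0.24, edgeR adjusted p = 0.00164). Both were called without any 1 library. Tgfbi, a secreted matrix protein, went up in WT-Cre, from 84.4 and 90.5 to 230 and 300 CPM (1.60, SE 0.35, edgeR adjusted p = 0.0154), and lost its call whichever library was left out.

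Matrix genes gave few calls, 2.78% of the collagens and matrix genes and 5.56% of the metalloproteinases and TIMPs, beside the 7.37% called over all genes tested. Of 36 collagens and matrix genes, only Thbs1, thrombospondin 1, was called, at 1178 and 2574 CPM in EV-Cre against 358 and 401 CPM in WT-Cre (log2 fold change -2.31, SE 0.47, edgeR adjusted p = 0.0108, up to 0.118 without 1 library). Of 18 matrix metalloproteinases and TIMPs only Timp3, an inhibitor, was called, at 977 and 1916 against 313 and 385 CPM (-2.05, SE 0.47, edgeR adjusted p = 0.0191, up to 0.182 without 1 library). The large type I collagen gene Col1a1 was at 3154 and 4951 against 5136 and 6596 CPM (0.53, SE 0.53, edgeR adjusted p = 0.602) and did not pass, whereas the replicate block called it higher (0.57, edgeR adjusted p = 0.0302). With that block 9 collagen and matrix genes were called higher and 8 lower, beside 1534 and 1641 of all 13805 genes tested. Of 19 smooth-muscle contractile genes, Acta2 and Synpo2 were called lower (10.5%), Synpo2 in 3 of 4 fits without 1 library. Acta2, smooth-muscle actin, was at 134 and 123 against 62.0 and 64.2 CPM (-1.03, SE 0.21, edgeR adjusted p = 0.0119, from 0.0551 to 0.104 without 1 library). Actb, cytoplasmic actin, was at 1853 and 1357 against 1361 and 1096 CPM (-0.39, SE 0.26, edgeR adjusted p = 0.412), with WT-Cre below EV-Cre within each experiment and the groups overlapping between experiments.

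Immediate early genes and the feedback genes of ERK signalling were lower in WT-Cre where they were called. ERK signalling induces transcription factors of the AP-1 family and, as negative feedback, phosphatases and adaptors that dampen the pathway. Of 24 AP-1 and immediate early genes, 9 were called lower (37.5%, beside 3.48% of all genes tested) and none higher (median -0.68). Fosl1, an AP-1 subunit, was at 12.9 and 7.44 CPM in EV-Cre against 3.68 and 2.15 CPM in WT-Cre (log2 fold change -1.79, SE 0.35, edgeR adjusted p = 0.00862), and Maff, a small Maf factor, at 85.5 and 66.0 against 24.1 and 18.6 CPM (-1.83, SE 0.27, edgeR adjusted p = 0.00218). Maff was called without any 1 library and Fosl1 in 2 of 4 cases. Of 18 ERK feedback genes, 9 were called lower (50%, beside 3.48% of all genes tested) and none higher (median -1.01). Dusp4, a phosphatase of ERK, was at 31.2 and 24.0 against 8.57 and 6.20 CPM (-1.90, SE 0.26, edgeR adjusted p = 0.00156). Spry4, a Sprouty adaptor, was at 6.67 and 5.98 against 2.40 and 2.58 CPM (-1.34, SE 0.26, edgeR adjusted p = 0.0085). The EV-Cre libraries of both genes lay above their WT-Cre libraries, and without 1 library Dusp4 was called in each case and Spry4 in 2 of 4 (adjusted p up to 0.0887). The 2 lists share Ier3, and they held 3 to 4 and 1 to 6 calls respectively when 1 library was left out. Of 25 growth factor ligands and receptors, 4 were called lower and 1, Igf1, higher (20% called, beside 7.37% of all genes tested). When 1 library was left out, 1 to 2 were called lower and none higher, and Igf1 and Pdgfb, one of the 4, lost their calls in each case. Hbegf, a ligand of the EGF receptor, was at 158 and 236 against 30.4 and 31.4 CPM (-2.67, SE 0.40, edgeR adjusted p = 0.00239), and Ereg, another such ligand, at 127 and 156 against 33.4 and 41.6 CPM (-1.92, SE 0.33, edgeR adjusted p = 0.00538, up to 0.0687 without 1 library). The genes of the PI3K-AKT and RAF-MEK-ERK kinases gave 0 calls of 32, beside 7.37% of all genes tested, at which few calls would fall in a list of this size (edgeR, 4 at an unadjusted p under 0.05, median -0.03, and 0 with DESeq2). Akt1 was at 254 and 230 against 230 and 202 CPM (-0.16, SE 0.21, edgeR adjusted p = 0.696).

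Antioxidant genes, and a few genes of the heat shock and ATF4 responses, were lower in WT-Cre where they were called. The share called lower was 34.8% in the NRF2 list and 12.5% in the heat shock list, beside 3.48% of all genes tested. Of 23 NRF2 antioxidant genes, 8 were called lower and none higher (median -0.42), with 3 to 7 called when 1 library was left out. Slc7a11, the cystine transporter, was at 46.1 and 63.9 CPM in EV-Cre against 6.001 and 6.49 CPM in WT-Cre (log2 fold change -3.14, SE 0.48, edgeR adjusted p = 0.00274). Gsta4, a glutathione transferase, was at 65.3 and 42.5 against 7.82 and 7.54 CPM (-2.81, SE 0.29, edgeR adjusted p = 0.000312). Hmox1, haem oxygenase, was at 718 and 458 against 172 and 129 CPM (-1.96, SE 0.30, edgeR adjusted p = 0.00276, up to 0.0537 without 1 library). The WT-Cre libraries of Gsta4 and Hmox1 lay near the EV-GFP libraries, which held 8.11 and 7.85 CPM of Gsta4 and 197 and 139 CPM of Hmox1. The core of the antioxidant response element, searched on both strands, was found in 2 of the 18 promoters of this list (11.1%), in 2 of 10 heat shock promoters and in 3.25% of tested genes. The serum response element was found in 5 of 15 promoters of the smooth-muscle contractile genes (33.3%), in 2 of 19 of the AP-1 and immediate early genes (10.5%) and in 1.61% of tested genes. Of 16 heat shock genes, Hspa1b and Hsph1 were called lower, at 62.1 and 45.7 against 19.99 and 21.9 CPM (-1.36, SE 0.15, edgeR adjusted p = 0.00042) and at 184 and 192 against 91.0 and 98.1 CPM (-0.99, SE 0.14, edgeR adjusted p = 0.0015). Hspa1b has a near-identical neighbour, Hspa1a, so its reads are uncertain. Of 27 ATF4 stress and serine synthesis genes, edgeR called only Trib3 and Dnajb9, both lower (-1.60 and -1.58, edgeR adjusted p = 0.00615 and 0.0441). That was a share of 7.41% beside the 7.37% called over all genes tested. DESeq2 called 6 of the 27 lower, beside 733 lower of all 13805 genes tested. Trib3 kept its call in 2 of 4 fits without 1 library and Dnajb9 in none (adjusted p up to 0.0838 and 0.277).

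Among 29 chemokines, IL-6 family cytokines and acute-phase genes, 4 were called lower (13.8%, beside 3.48% of all genes tested) and none higher (median -0.64), with 2 to 4 called when 1 library was left out. Il6 was at 180 and 285 CPM in EV-Cre against 45.7 and 51.1 CPM in WT-Cre (log2 fold change -2.27, SE 0.31, edgeR adjusted p = 0.00131). Ptgs2, the cyclooxygenase COX-2, was at 354 and 405 against 86.3 and 99.4 CPM (-2.03, SE 0.34, edgeR adjusted p = 0.00469, up to 0.0621 without 1 library). Tnfaip3, an inhibitor of NF-kappa B signalling, was at 202 and 180 against 74.2 and 67.3 CPM (-1.43, SE 0.18, edgeR adjusted p = 0.000938). All these libraries were separate, and Il6 and Tnfaip3 were called without any 1 library. Interferon-stimulated genes gave 2 calls of 34, Cxcl10 (-0.89, edgeR adjusted p = 0.00615) and Mx2 (-1.07, edgeR adjusted p = 0.0173), both lower, a share of 5.88% that is near the 7.37% called over all genes tested. Without 1 library Cxcl10 was called in 2 of 4 cases (adjusted p up to 0.0702) and Mx2 in 1 (up to 0.179), and Mx2 lost its call with the compared groups alone (0.0619). Of 15 genes of MHC class I and antigen processing, 0 were called by edgeR, with 4 at an unadjusted p under 0.05. DESeq2 called 1, beside 1518 of all 13805 genes tested. At shares such as 7.37%, few calls would fall in a list of this size. Of 20 pausing and pause-release factors, 1 was called, a share of 5% that is near the 7.37% called over all genes tested. The gene was Ccnt1, which encodes cyclin T1 of P-TEFb, at 29.5 and 35.3 against 22.1 and 22.4 CPM (-0.54, SE 0.13, edgeR adjusted p = 0.0277). It kept its call in 1 of 4 fits without 1 library. Supt5, a subunit of DSIF, was at 240 and 254 against 233 and 236 CPM (-0.07, SE 0.12, edgeR adjusted p = 0.775).

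Several of the largest changes lay outside these lists. Lipg, endothelial lipase, was at 0.856 and 0.471 CPM in EV-Cre against 7.91 and 11.9 CPM in WT-Cre (log2 fold change 3.88, SE 0.47, edgeR adjusted p = 0.000665). Fmo1, a flavin monooxygenase, was at 1.53 and 1.13 against 14.2 and 14.2 CPM (3.41, SE 0.24, edgeR adjusted p = 1.11e-05), and Stk32b, a kinase, at 0.901 and 0.659 against 7.86 and 4.63 CPM (2.99, SE 0.42, edgeR adjusted p = 0.00182). These 3 were near or under 1 CPM in EV-Cre and several-fold higher in WT-Cre. In the other direction, Gpr35, a G protein-coupled receptor, was at 4.37 and 5.65 against 0.166 and 0.143 CPM (-4.96, SE 0.72, edgeR adjusted p = 0.00208). Atp8b4, a phospholipid flippase, was at 9.82 and 10.1 against 1.57 and 2.05 CPM (-2.46, SE 0.39, edgeR adjusted p = 0.00308, up to 0.0507 without 1 library), and Il13ra2, a decoy receptor for interleukin-13, at 79.7 and 105 against 14.9 and 15.7 CPM (-2.60, SE 0.53, edgeR adjusted p = 0.0112, up to 0.106 without 1 library). The uncharacterised gene 1700029J07Rik was at 7.52 and 10.7 against 1.03 and 1.86 CPM (-2.66, SE 0.47, edgeR adjusted p = 0.00615, up to 0.0811 without 1 library). Gpr35, Lipg, Fmo1 and Stk32b were called without any 1 library. Gpr35 rested on 4 and 3 reads in WT-Cre.

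Fibroblast identity was checked with markers. Fn1, fibronectin, was at 13270 and 22190 CPM in EV-Cre and at 9993 and 15500 CPM in WT-Cre, and the summed level of the 14 fibroblast markers was 25090 and 38500 against 24750 and 33880 CPM. Of 13 fibroblast markers tested, 1 was called (7.69%, beside 7.37% of all genes tested), S100a4, which encodes a calcium-binding protein, at 19.96 and 17.8 against 54.9 and 58.5 CPM (log2 fold change 1.58, SE 0.24, edgeR adjusted p = 0.00252). Markers of other cell types were low apart from single genes. The 11 macrophage and leukocyte markers summed to 252 and 263 CPM in EV-Cre and 355 and 412 in WT-Cre, nearly all of it from Cd14, while Adgre1, Tyrobp and Cd3e had 0 reads in the 4 libraries. Of the 5 tested, edgeR called 0, with 2 at an unadjusted p under 0.05, and DESeq2 called 2 lower, beside 733 lower of all 13805 genes tested. With the replicate block 1 was called higher, Cd14 (0.60, edgeR adjusted p = 0.0162), and 3 lower, Cd68 among them (-0.72, edgeR adjusted p = 0.00579). Over all 13805 genes tested that block called 1534 higher and 1641 lower. The 8 endothelial markers summed to 1.35 and 1.46 against 0.993 and 1.00 CPM, with Emcn and Cldn5 at 0 reads. The 12 epithelial and keratinocyte markers summed to 112 and 101 against 74.8 and 58.1 CPM, with Krt8 and Krt14 at 0 reads and most of the sum from Sprr1a, a cornified envelope gene. Sprr1a was the one called of 6 tested, at 104 and 95.7 against 68.5 and 52.6 CPM (-0.72, SE 0.19, edgeR adjusted p = 0.0371), and it lost its call whichever library was left out. The 8 adipocyte markers summed to 88.4 and 59.4 against 121 and 105 CPM, mostly from Fabp4, with Lep at 0 reads. Of the 3 tested, edgeR called 0, with 2 at an unadjusted p under 0.05, and DESeq2 called Fabp4 (0.83, adjusted p = 0.0381). With the replicate block Fabp4 was called higher (0.86, edgeR adjusted p = 1.26e-05) and Cebpa lower (-0.83, edgeR adjusted p = 0.0226). The 9 muscle and neural markers summed to 84.9 and 92.8 against 79.0 and 103 CPM, mostly from Nes, with Myod1, Myog, Myf5, Ckm and Sox10 at 0 reads, and 0 of 2 tested were called by edgeR (0 at an unadjusted p under 0.05) or by DESeq2.

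Next, the same vectors were compared in the cells that had received Ad-GFP. Between WT-GFP and EV-GFP, edgeR called 0 of 13805 genes (0%), with 84 at an unadjusted p under 0.05 against 3268 with Ad-Cre, and DESeq2 called 1 gene, Nelfb (log2 fold change 1.07, SE 0.21, DESeq2 adjusted p = 0.0039). In edgeR the Nelfb difference was also 1.07, with an adjusted p that rounded to 1. The SD over genes of the WT minus EV difference was 0.287 and 0.328 with Ad-GFP in experiments 1 and 2, against 0.577 and 0.685 with Ad-Cre. The signs of the Ad-GFP differences agreed between experiments for 53.8% of genes. Of the 1018 genes called with Ad-Cre, 66 (6.48%) differed by more than 0.5 on the log2 scale between WT-GFP and EV-GFP. In 18 (1.77%) the unadjusted p there was under 0.05, beside the 84 of all 13805 genes. In 1017 the difference was smaller with Ad-GFP, where the median absolute difference over all genes tested was 0.102. The 1018 were chosen for a large difference with Ad-Cre, so that count largely follows from the choice and is no separate evidence.

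The interaction, which asks whether the WT minus EV difference itself depended on Cre, was called for 94 genes (0.681% of those tested), 55 with a positive and 39 with a negative interaction, by edgeR at an adjusted p under 0.05. All 94 were among the 1018. The lists of sterol biosynthesis, of sterol sensing, uptake and efflux and of fatty acid synthesis and desaturation, with 60 of the 13805 genes tested, held 21 of the 55 genes with a positive interaction. The 28 genes of fatty acid oxidation held none, but at 0.398% of all genes tested a list of that size would seldom hold any. Sterol biosynthesis alone held 14, sterol sensing, uptake and efflux 4 and fatty acid synthesis and desaturation 3. For Fdps the interaction was 3.06 (edgeR adjusted p = 0.0278) and for Insig1 2.80 (edgeR adjusted p = 0.00541). For Nelfb it was 2.27 (edgeR adjusted p = 0.00574), since WT-GFP already exceeded EV-GFP. Of the mitotic genes none was called in the interaction, with Kif2c at 1.87 (edgeR adjusted p = 0.13). Among genes that were lower, Gsta4 had an interaction of -3.04 (edgeR adjusted p = 0.00637) and Plk2 of -1.68 (edgeR adjusted p = 0.003). The interaction was called for 10 genes with the compared groups alone and for 5 to 40 when 1 library was left out, with 5 without WT-GFP replicate 1 and 6 without WT-Cre replicate 2. With the replicate block it was called for 2388 genes, and it included the 4 named mitotic genes, Kif2c at 1.88 (edgeR adjusted p = 0.035), Ccnb1 at 1.99 (0.0318), Cdca3 at 2.00 (0.0208) and Ccnb2 at 1.79 (0.0314).

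**Figure D4:**
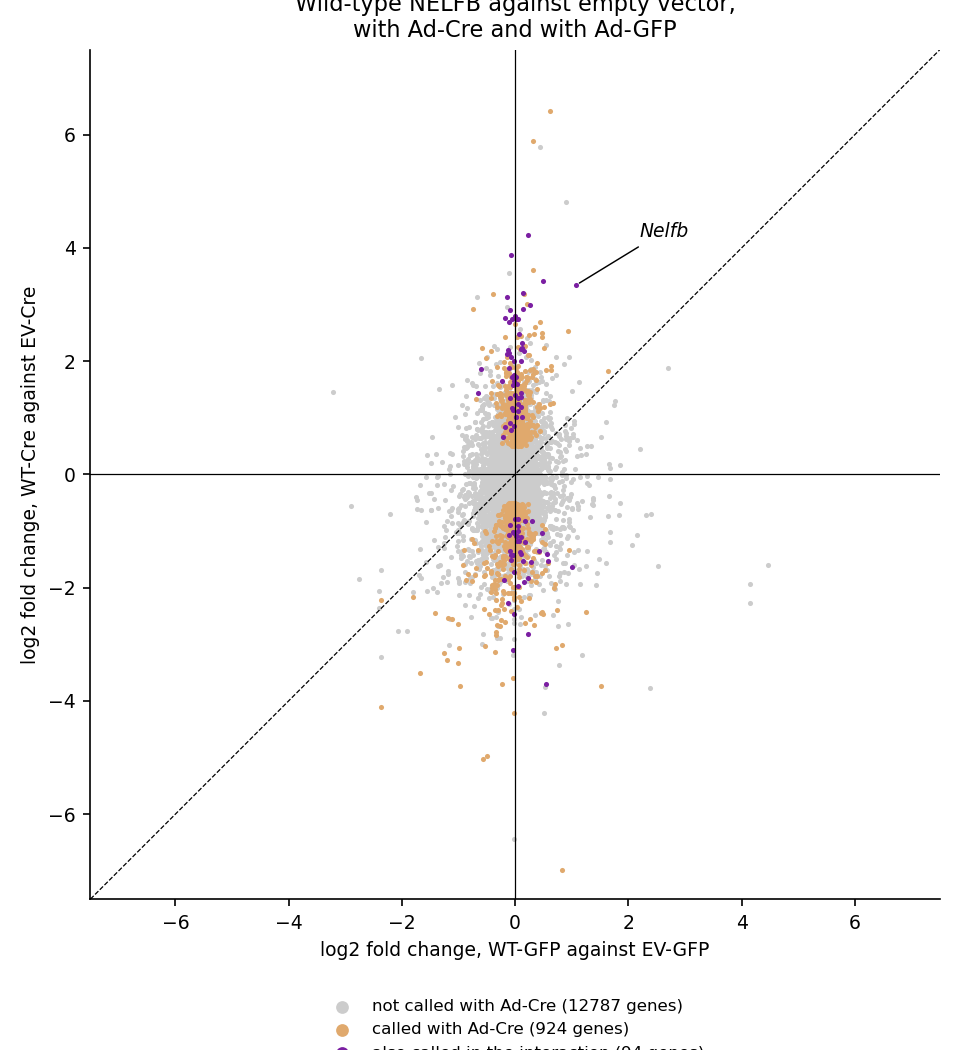
Log2 fold change of WT against EV with Ad-GFP (x axis) and with Ad-Cre (y axis), from the edgeR fit, for 13805 genes. Orange marks genes called with Ad-Cre, purple the 94 also called in the interaction, and the dashed line equality. The called genes spread along the y axis around 0 on the x axis, with Nelfb at 1.07 and 3.34.

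The levels in WT-Cre were also set beside those of EV-GFP, the cells with the floxed allele in place and no transgene. This is an order of levels without a test, and the ends of each range come from 2 libraries. Of the 537 genes called higher in WT-Cre, 184 (34.3%) had both WT-Cre libraries still below both EV-GFP libraries, 209 (38.9%) overlapped them and 144 (26.8%) lay above both. Of the 481 called lower, 153 (31.8%) were still above both EV-GFP libraries, 225 (46.8%) overlapped and 103 (21.4%) lay below both. By list, in sterol biosynthesis 17 of the 19 called genes stayed below EV-GFP and none lay above it, and in fatty acid synthesis and desaturation 6 of 9 stayed below. In mitosis the order was the other way, with 20 of the 23 called genes above both EV-GFP libraries, as were all 6 called genes of DNA replication. Kif2c, for example, was at 38.3 and 41.2 CPM in WT-Cre, 21.7 and 28.9 CPM in EV-GFP and 13.4 and 7.72 CPM in EV-Cre. Of the genes called lower, 6 of 9 AP-1 and immediate early genes and 4 of 6 YAP/TEAD targets stayed above EV-GFP, and 4 of the 8 NRF2 antioxidant genes overlapped it.

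**Figure D5:**
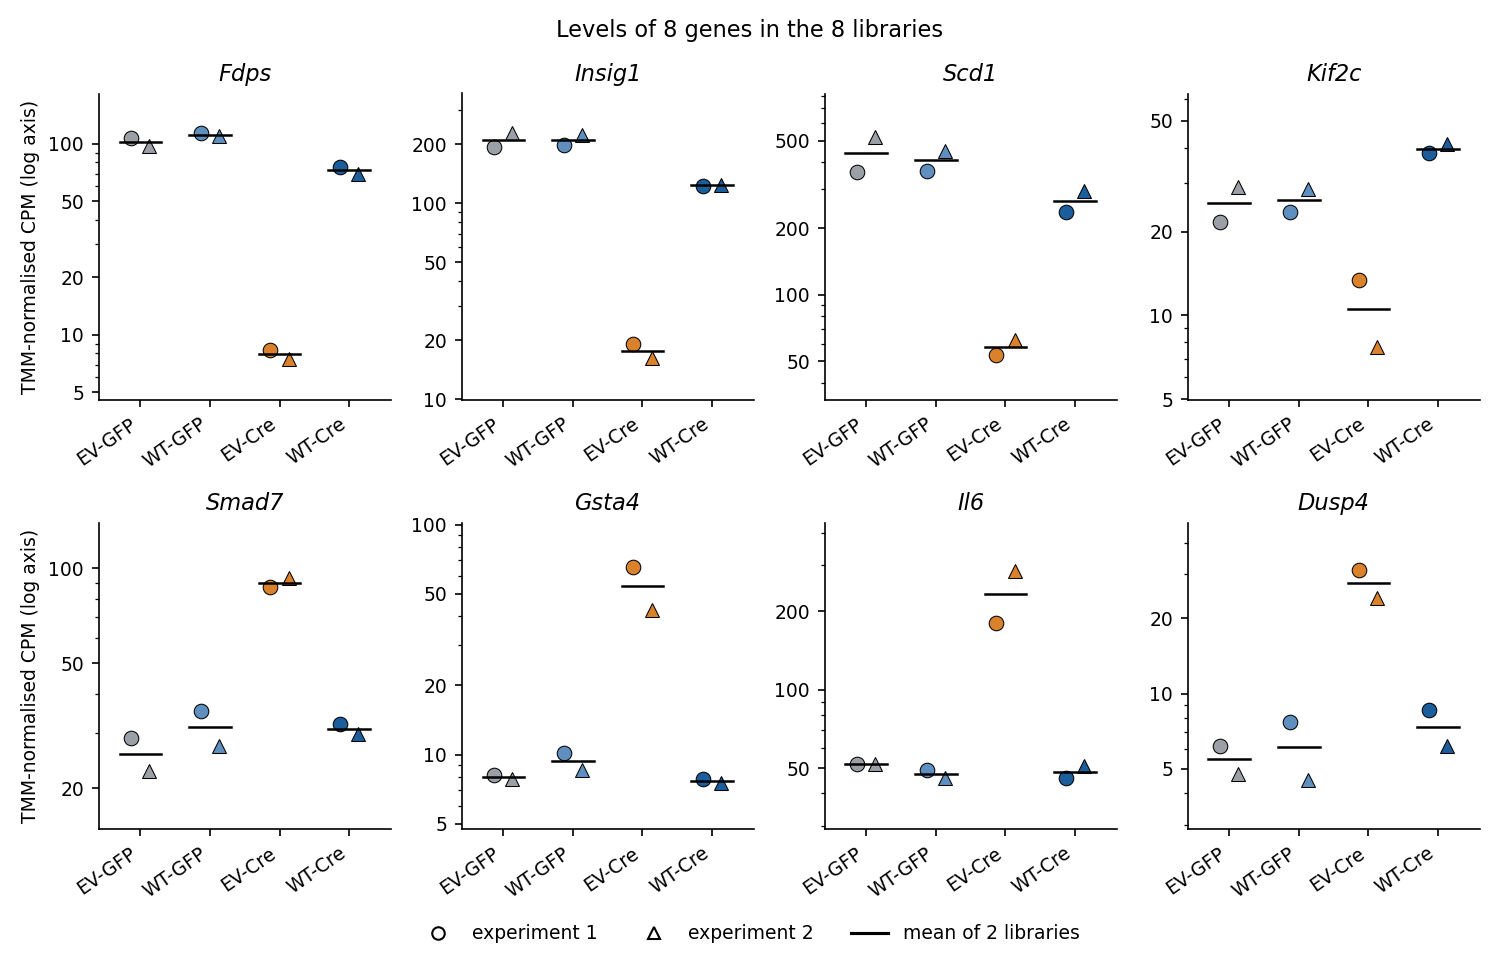
TMM-normalised CPM (log axis, each panel with its own range) of Fdps, Insig1, Scd1, Kif2c, Smad7, Gsta4, Il6 and Dusp4 in EV-GFP, WT-GFP, EV-Cre and WT-Cre. Circles are experiment 1, triangles experiment 2 and bars the mean of 2 libraries. Fdps, Insig1 and Scd1 in WT-Cre lie between EV-Cre and EV-GFP, Kif2c in WT-Cre lies above all other groups, and the 4 genes called lower stand out in EV-Cre alone.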

How the data were processed

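Poly(A)-selected RNA of 20 populations (10 groups of 2 libraries) was fitted together, and 4 of them carry the comparison. The authors aligned single reads to mm10 with Bowtie2, dropped alignments of low mapping quality, sorted them with SAMtools and obtained gene counts with HTSeq. The deposited values are raw read counts for 24421 genes. Versions, the annotation and the strand setting are not given in the sources used here, so reads of overlapping or antisense genes may be mixed, and Bowtie2 does not place reads across exon junctions. Reads assigned to no gene (11.7% to 21.3% per library) or to several (0.911% to 1.05%) were left out of library sizes. Another 15 libraries of stable clones were not used here.

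Counts were filtered (filterByExpr, 13805 genes kept), TMM-scaled and tested with edgeR 4.0.16 (glmQLFit with robust estimation, glmQLFTest, R 4.3.3) with 1 mean per group and no block, and p-values were Benjamini-Hochberg adjusted over all genes tested. To be called, a gene had to have an adjusted p under 0.05 together with a log2 fold change beyond 0.5 in either direction. The interaction needed the adjusted p alone. Differences within an experiment are from log2 CPM with a prior count of 2. All 20 populations enter the fit because 2 libraries give little information on the spread. The error is therefore shared with the MT194, MT486 and DMT populations. The number of reads on genes was 17969149 to 29080007 per library, and 3 reads, the limit that a count of 0 allows, correspond to 0.135 and 0.141 CPM in EV-Cre and 0.124 and 0.143 in WT-Cre. This limit covers counting error only. Replicate numbers paired the samples: same-numbered libraries correlated in their deviations from the group means in 45 of 45 pairs of groups (0.42 to 0.73, and 0.524 for WT-Cre with EV-Cre), and the study describes 2 independent experiments. Replicate libraries differed far beyond sampling noise (chi-square per degree of freedom from 34.0 in WT-Cre to 197 in MT194-Cre, with 89.3 in EV-Cre). Coordinates of genes came from GENCODE (mm10), with a line for 13254 of the tested genes, and promoters from RefSeq (GRCm38.p6). On simulated counts with 200 changed genes among 13750, the fit for WT-Cre against EV-Cre recovered 34% of those changed by 1 on the log2 scale and 93% of those changed by 2, with 12 false calls. These counts were drawn without the pairing of experiments and with the spread of the fit without a block, so they differ from the paired libraries.

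Named genes were the 4 NELF subunits, Actb, Fasn and Cdkn1a, the 12 largest increases and 12 largest decreases among called genes that averaged 50 reads or more per library and had groups that did not overlap, up to 4 called members of each of 35 gene lists (908 genes, up to 2 for marker lists, or the 2 most abundant members where fewer than 2 were called), and the largest interactions. The compared groups, the genes and the lists were chosen with earlier results of these data known. Alternatives were DESeq2 1.42.0, its size factors, no filter, the compared groups alone, the replicate block, other thresholds on the fold change and leaving out each library. Some genes that met the rule for names are not reported here.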

Additional observations from a re-analysis of the deposited data

Results flagged for a closer look

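The difference between wild-type NELFB and empty vector itself differed between Ad-Cre and Ad-GFP for 94 genes, by the interaction term of edgeR's quasi-likelihood fit. The values that follow are that interaction on the log2 scale, (WT-Cre minus EV-Cre) minus (WT-GFP minus EV-GFP), for named genes that passed. Among sterol genes it was 3.06 for Fdps, 2.96 for Cyp51, 2.80 for Insig1 and 2.78 for Mvd. Among fatty acid genes it was 2.31 for Scd1, 2.27 for Scd2 and 1.99 for Elovl6. Outside these pathways it was 3.95 for Lipg, 2.92 for Fmo1, 2.72 for Stk32b, 2.27 for Nelfb, 1.62 for S100a4 and 0.98 for Ndufb11. Among genes lower in WT-Cre it was -3.04 for Gsta4, -2.45 for Ankrd37, -2.14 for Il6, -2.05 for Dusp4, -2.05 for Maff and -2.02 for Hmox1. It was -1.82 for Smad7, -1.68 for Plk2, -1.46 for Hspa1b and -1.37 for Tnfaip3. No group of the comparison had more than 2 libraries, too few to test a group's values for a single distant library.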

How the results depend on the processing

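The count of genes called between WT-Cre and EV-Cre was 1518 with DESeq2, 1027 with its size factors, 757 without a filter on low counts and 1105 without a threshold on the fold change, against 1018 in the fit reported. It was 371 with the compared groups alone, 559 at an absolute log2 fold change over 1, and 3175 with the replicate block, which all 1018 passed. It ranged from 173 to 669 when 1 library was left out, and the share of calls that were higher, 52.8% in the fit reported, was 65.9% without WT-Cre replicate 2 and 42.0% without EV-Cre replicate 2. Between WT-GFP and EV-GFP the count was 1 with DESeq2 and 0 in every other fit, the replicate block included. The interaction was called for 455 genes with DESeq2, 79 with its size factors, 52 without the filter, 10 with the compared groups alone and 2388 with the replicate block, and for 5 to 40 when 1 library was left out. No scaling moved the median of all genes by more than 0.1. No named gene changed direction with another tool, scaling, filter, sample set or the block, except that Tek and Vwf had no value with the compared groups alone. Leaving out 1 library in turn moved 7 genes that were not called to either side of 0. Their log2 fold changes over these fits ranged from -0.315 to 0.326 for Calr, -0.439 to 0.437 for Krt19, -0.0039 to 0.718 for Mmp2, -0.164 to 0.230 for Nes, -0.128 to 0.173 for Pik3r1, -0.265 to 0.560 for Tubb3 and -0.01 to 0.751 for Vwf. Fewer samples in a fit leave less information on the spread, and for the other changes the cause was not tested. In simulated counts with 2 libraries per group, no pairing of experiments and no block, changes of 1 on the log2 scale were mostly missed. The parts of the group size and of the missing pairing were not told apart. A gene without a call is therefore not shown to be the same in both groups.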

Other observations

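Of the 1018 genes called between WT-Cre and EV-Cre, 937 were annotated as protein-coding, and 165 were in at least 1 of the 35 lists. The remainder included 11 antisense genes, 11 lincRNA genes and 6 lncRNA genes at bidirectional promoters, and 40 had no line under their symbol in the annotation. Of the called genes, 140 had a mean of under 50 reads over the 4 libraries. Among the promoters in RefSeq, the CCAAT box was found in 215 of 393 genes called higher in WT-Cre (54.7%) and in 153 of 363 called lower (42.1%), against 42.9% of tested genes, and TTTGAA in 82 of 393 (20.9%) and 46 of 363 (12.7%), against 14.1%. Promoters of list members are part of these counts, and the shares are a description of letters without a test.

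The interaction also held genes outside the lists, 31 of the 55 with a positive and 24 of the 39 with a negative value. Chosen after their values were seen, Kank4, which encodes a cytoskeletal scaffold protein, had a log2 fold change of 2.23 between WT-Cre and EV-Cre and an interaction of 2.12 (edgeR adjusted p = 0.003). Hes1, a target of Notch signalling, had a log2 fold change of -1.35 and an interaction of -1.77 (edgeR adjusted p = 0.0485). Oxct1 and Pccb, mitochondrial enzymes of ketone body use and of propionyl-CoA breakdown, had log2 fold changes of 1.34 and 1.35 and interactions of 1.43 and 1.30 (edgeR adjusted p = 0.0265 and 0.0193).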
